A study of Mus musculus with 2 samples.

Results

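The replication-dependent histone genes were followed in tumor-infiltrating leukocytes of mice bearing B16-F10 melanoma, a transplantable mouse melanoma line. The members were the genes whose symbol starts with Hist1h, Hist2h, Hist3h or Hist4h and that had at least 20 unique molecular identifiers (UMIs, 1 per captured RNA molecule) over both libraries. This left 62 of 67 such symbols among 32285 annotated genes: 5 H1, 16 H2A, 16 H2B, 12 H3 and 13 H4 genes. The 5 left out were Hist2h2aa2 and Hist1h1t with 5 UMIs each, Hist1h2bq with 1, and Hist1h2ba and Hist1h2aa with 0, while the members nearest to the limit were Hist1h2ao with 35 and Hist2h3c2 with 50.

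Wild-type mice were treated with vehicle (Control) or with DOPAC (dihydroxyphenylacetic acid, which is formed when dopamine is degraded), and CD45+ cells sorted from the tumors were sequenced as 1 library for each group. The design names 4 mice for each group, but no label ties a barcode to a mouse, and age, strain, dose and time are not given in the sources used here. With 1 library per group, each difference between DOPAC and Control compares 2 libraries and has no replicate check, so no test between the groups was possible. After filtering, 8105 Control and 9280 DOPAC barcodes were kept, with a median of 9320 and 3592 UMIs, so the Control library was the deeper one. Ptprc, which encodes CD45, had a UMI in 97.3% and 95.1% of them. Cell classes were gated by marker UMIs. A barcode was called cycling when Mki67 and Top2a, both high in dividing cells, together had at least 2 UMIs. Levels are CPM, the UMIs of a gene or of all members summed over barcodes and scaled to 1e6 UMIs, and all intervals are exact 95% intervals that cover counting error only.

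Histones package DNA: H2A, H2B, H3 and H4 form the nucleosome core, and H1 binds the linker between nucleosomes. The replication-dependent genes are clustered, mostly lack introns, and are switched on as DNA is copied, so that new chromatin can be assembled. Their messages typically end in a short stem-loop that binds SLBP in place of a poly(A) tail, although some members can also give polyadenylated RNA, and these libraries are labelled as made from polyA RNA. In the GRCm38 annotation, 50 members lay in the large cluster on chromosome 13 (chr13:21715763-23764406), 9 on chromosome 3, 2 on chromosome 11 and 1 on chromosome 6.

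The stem-loops were located in the annotated GENCODE M21 transcripts, because the genes differed in how far the annotated message runs beyond the loop. A stem-loop matching the histone consensus was present in 42 of 62 members (3 of 5 H1, 10 of 16 H2A, 10 of 16 H2B, 8 of 12 H3 and 11 of 13 H4), against 0.219% of 21901 protein-coding genes; several of the other members are annotated only as far as the coding end. The same letters served 25 members of H1, H2A, H2B and H3, whereas none of the 11 H4 loops had them, and 7 of those shared another version. Capitals mark the stem-loop in the examples below, chosen as the most abundant member, an H3 and an H4 example, and 3 members whose RNA followed cycling weakly. The coordinates are GRCm38 and cover the capitals.
Hist1h2ap, chr13:21833029-21833044, minus strand: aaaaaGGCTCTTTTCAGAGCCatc
Hist1h3c, chr13:23745047-23745062, minus strand: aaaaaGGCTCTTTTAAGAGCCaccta
Hist1h4d, chr13:23581950-23581965, plus strand: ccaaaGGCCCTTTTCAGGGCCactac
Hist1h1c, chr13:23739512-23739527, plus strand: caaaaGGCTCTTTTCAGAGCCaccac
Hist3h2a, chr11:58955172-58955187, plus strand: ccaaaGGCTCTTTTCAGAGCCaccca
Hist4h4, chr6:136803998-136804013, minus strand: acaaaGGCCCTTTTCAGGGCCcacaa
The Hist1h2ap transcript ended 3 bases after its loop. The transcripts of Hist1h1c, Hist3h2a and Hist4h4 ran on for 840, 1643 and 2445 bases. Near the ends of these longer transcripts lies AATAAA, the usual signal for adding a poly(A) tail, shown in capitals below for those 3 genes and for Hist1h2ae, which has both a loop and the signal. Here the coordinates cover the whole run of letters.
Hist1h1c, chr13:23740332-23740357, plus strand: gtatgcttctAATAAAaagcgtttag
Hist3h2a, chr11:58956787-58956812, plus strand: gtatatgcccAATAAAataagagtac
Hist4h4, chr6:136801553-136801571, minus strand: gaggagatgaAATAAAtac
Hist1h2ae, chr13:23570529-23570554, minus strand: cagcttctccAATAAAtgggtcaatt
AATAAA within the last 50 annotated bases was found in 13 of 62 members, or 20.97%, against 65.7% of protein-coding genes. Of the 13, Hist1h2be has it only in a transcript that is not annotated as protein-coding. Such transcripts were left out of the share over genes, so the 2 shares are not fully alike.

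Promoters were matched in RefSeq (GRCm38.p6, 250 bases before to 50 after the start) for 57 of 62 members, and were searched on both strands for ATTTGCAT, the octamer known from H2B promoters, for CCAAT and for TATAAA. Each motif was counted on its own, overlapping matches were allowed, and a match is a description of the letters only. Windows of neighbouring genes could overlap, and a shared match counted for each gene. The octamer occurred in 6 of 16 H2A and 6 of 14 H2B promoters and in none of the H1, H3 or H4 promoters, against 1.97% of 27025 genes. CCAAT occurred in all 5 H1, 16 H2A, 14 H2B and 10 H3 promoters but in 3 of 12 H4 promoters, against 41.1% of genes. TATAAA occurred in 33 of 57, against 15.7%. The 250 bases before the start are shown for the 2 most abundant H2A genes, which followed cycling closely, and for Hist1h1c, which did not, with all matches in capitals.
Hist1h2ap, chr13:21833476-21833725, minus strand: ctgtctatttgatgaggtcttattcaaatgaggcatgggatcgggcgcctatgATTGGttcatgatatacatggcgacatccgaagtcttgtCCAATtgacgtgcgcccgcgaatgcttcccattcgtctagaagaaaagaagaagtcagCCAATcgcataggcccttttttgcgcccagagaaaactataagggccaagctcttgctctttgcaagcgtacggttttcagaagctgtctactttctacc
Hist1h2ae, chr13:23571221-23571470, minus strand: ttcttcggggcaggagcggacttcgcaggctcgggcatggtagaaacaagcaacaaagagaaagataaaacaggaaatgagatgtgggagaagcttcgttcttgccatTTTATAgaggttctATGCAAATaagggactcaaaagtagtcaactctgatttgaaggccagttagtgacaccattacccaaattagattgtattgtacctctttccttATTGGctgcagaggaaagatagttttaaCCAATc
Hist1h1c, chr13:23738557-23738806, plus strand: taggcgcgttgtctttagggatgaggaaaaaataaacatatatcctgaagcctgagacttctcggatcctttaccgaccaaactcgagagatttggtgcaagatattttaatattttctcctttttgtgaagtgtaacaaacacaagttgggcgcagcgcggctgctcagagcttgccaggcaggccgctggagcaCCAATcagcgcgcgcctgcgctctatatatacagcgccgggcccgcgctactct
All 3 hold CCAAT, and of these only Hist1h2ae holds the octamer and TATAAA. The Hist1h2ae window reaches into Hist1h2bg, annotated on the opposite strand, and its octamer and TATAAA both read on that strand.

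Histone RNA was concentrated in cycling barcodes in both libraries. The summed members made up 1577 CPM (1560 to 1593) of 1047 cycling Control barcodes and 353 CPM (349 to 358) of the 7058 others, a 4.47-fold difference. In DOPAC they made up 2643 CPM (2615 to 2671) of 1494 cycling barcodes and 367 CPM (360 to 374) of the 7786 others, a 7.20-fold difference. Of the 62 members, 57 were at least 1.5-fold higher in cycling Control barcodes and none at least 1.5-fold lower, where 17.2% of all 15933 genes measured were higher by that rule and 13.7% lower. In DOPAC 58 were higher and 1, Hist3h2a, lower, where 13.6% and 21.1% of 14125 genes were. The median member was higher by 2.05 on the log2 scale in Control and by 2.43 in DOPAC, against 0.04 and -0.03 over all genes. Among the genes compared with themselves in the plot of cycling against other barcodes, most lay well above the line of equality, and 6 lay below the 2-fold line in both libraries.

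**Figure D1:**
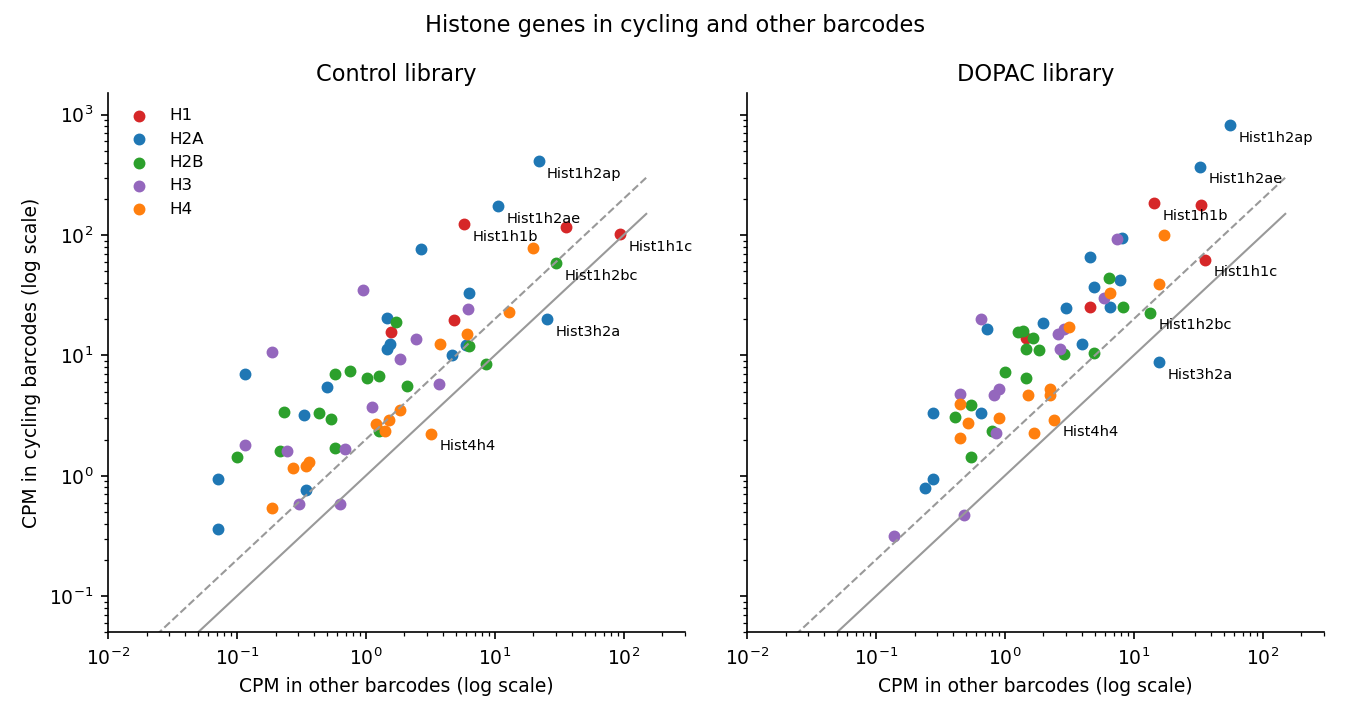
CPM of each of the 62 histone genes in cycling barcodes (vertical, log scale) against other barcodes (horizontal, log scale) in the Control and DOPAC libraries, with points coloured by histone type; the solid line marks equality and the dashed line a 2-fold difference. Hist1h2ap is the highest point in both libraries, and Hist3h2a lies below the line of equality in both.

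Among the linker histones, Hist1h1b (H1.5), Hist1h1e (H1.4) and Hist1h1c (H1.2) had the most UMIs in cycling barcodes. Hist1h1b stood at 124 CPM in cycling against 5.78 CPM in other Control barcodes, and at 183 against 14.5 CPM in DOPAC, which is 21.4-fold (19.3 to 23.9) and 12.6-fold (11.4 to 14.0). Hist1h1e stood at 117 against 36.0 CPM and at 177 against 33.5 CPM, or 3.24-fold and 5.29-fold; its annotation overlaps that of Hist1h2be, so UMIs of the 2 may not be separable. Hist1h1c differed far less with 102 against 93.8 CPM in Control, 1.09-fold (1.03 to 1.14), and 62.4 against 36.0 CPM in DOPAC, 1.73-fold (1.58 to 1.90). Pooled over classes, Hist1h1b thus followed the gate closely, Hist1h1e moderately, and Hist1h1c hardly at all in Control. Outside cycling barcodes of Control, Hist1h1c stood at 212 CPM in B cells and 62.7 CPM in monocytes and macrophages. Of these classes 0.398% and 17.4% of barcodes were cycling, and the part of class makeup in these folds was not tested.

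The H2A genes carried most of the signal. Hist1h2ap alone stood at 409 CPM in cycling and 21.99 CPM in other Control barcodes (18.6-fold, 17.6 to 19.7) and at 823 and 56.2 CPM in DOPAC (14.7-fold, 13.9 to 15.5). Hist1h2ae stood at 174 and 10.7 CPM in Control and 370 and 32.8 CPM in DOPAC, and Hist1h2ab at 76.4 and 2.68 CPM and at 65.7 and 4.63 CPM. These H2A genes encode near-identical core histones, and 93.1% of the 50-base words of the Hist1h2ap transcript also occur in Hist1h2ao, so that UMIs may be split or lost between them; over all members, 30 of 62 shared at least 50% of such words with another gene. UMIs count molecules and were not scaled for length, and an order between genes is an order of captured RNA. Hist3h2a, in the small cluster on chromosome 11, was the only H2A gene lower in cycling barcodes: 19.96 against 25.6 CPM in Control (0.780-fold, 0.701 to 0.865) and 8.76 against 15.7 CPM in DOPAC (0.558-fold, 0.450 to 0.689). Its annotation overlaps Trim17 and Gm44313. Its folds also pool classes. Outside cycling barcodes of Control, Hist3h2a stood at 57.1 CPM in B cells and 17.2 CPM in monocytes and macrophages, and the part of class makeup was not tested.

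The most abundant H2B genes in cycling barcodes were Hist1h2bc, Hist1h2bj and Hist1h2be. Hist1h2bj stood at 18.9 CPM in cycling and 1.73 CPM in other Control barcodes and at 44.1 and 6.50 CPM in DOPAC, 10.9-fold and 6.79-fold. Hist1h2bc was less tied to it, at 58.2 against 30.1 CPM in Control (1.93-fold, 1.80 to 2.07) and 22.7 against 13.5 CPM in DOPAC (1.68-fold, 1.44 to 1.96). Outside cycling barcodes Hist1h2bc was highest in neutrophils, which are short-lived and divide little after leaving the marrow: 158 CPM (116 to 211) in 99 Control barcodes and 110 CPM (40.4 to 240) in 34 DOPAC barcodes. In monocytes and macrophages it stood at 28.8 and 14.3 CPM, so its level in non-dividing barcodes differed by class.

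Of the H3 genes, Hist1h3c showed one of the largest differences between states, with 34.9 against 0.952 CPM in Control (36.7-fold, 28.5 to 47.9) and 92.9 against 7.43 CPM in DOPAC (12.5-fold, 10.8 to 14.5). Hist1h3e stood at 24.2 against 6.19 CPM and 29.99 against 5.87 CPM, and Hist1h3f at 13.8 against 2.47 CPM and 15.1 against 2.59 CPM. The H4 genes were tied less tightly to the gate than H2A or H3 genes, with a median log2 difference of 1.29 in Control and 1.72 in DOPAC, against 3.12 and 2.98 for H2A and 2.14 and 2.49 for H3. Hist1h4d, the leading H4 gene, stood at 77.8 against 19.8 CPM in Control and 101 against 17.2 CPM in DOPAC. Hist1h4i stood at 22.9 against 12.8 CPM and 38.9 against 15.8 CPM, and Hist1h4c at 15.02 against 6.16 CPM and 33.0 against 6.53 CPM.

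With all classes pooled, a group of 6 members was less than 2-fold higher in cycling barcodes in both libraries: Hist1h1c, Hist1h2bc, Hist3h2a, Hist2h3c1, Hist2h4 and Hist4h4. All but Hist1h2bc carry AATAAA near an annotated end, as shown above for 3 of them. The 13 members with that signal include Hist1h2be, which has it only in a transcript not annotated as protein-coding. Their median fold of cycling over other barcodes was 1.89 in Control and 2.57 in DOPAC. Over the 49 members without the signal the medians were 5.19 and 5.83. The groups overlapped: Hist1h2ae has the signal and was 16.3-fold and 11.3-fold higher in cycling barcodes. The 13 held 43.7% of histone UMIs in other Control barcodes and 21.1% in cycling ones, and 29.1% and 18.9% in DOPAC. Hist2h3c1, with 89 UMIs in all, shares all its 50-base words with Gm20634, so its value is uncertain.

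Cycling barcodes also differed from the others in which histone types they held. H2A genes gave 50.5% of histone UMIs in cycling Control barcodes (49.99 to 51.0) and 58.6% in DOPAC (58.1 to 59.2), but 23.8% and 40.2% in the others. H1 genes gave 24.0% and 17.5% in cycling barcodes, and 40.2% and 24.5% in the others. By summed level, H2A was 9.49-fold higher in cycling barcodes in Control and 10.5-fold in DOPAC, and H3 5.88-fold and 7.92-fold. H1, H2B and H4 were 2.66-fold, 2.64-fold and 2.76-fold higher in Control and 5.13-fold, 4.23-fold and 4.02-fold in DOPAC. The order of H2A above H3 above the other types held in both libraries.

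Histone RNA of cycling barcodes depended on the cell class. Summed members stood at 4457 CPM (4311 to 4606) in 51 cycling CD8 T barcodes of Control and 3209 CPM (3170 to 3248) in 919 of DOPAC, and at 1139 CPM (1119 to 1160) in 504 and 939 CPM (871 to 1012) in 89 cycling monocyte/macrophage barcodes. CD8 T barcodes were thus 3.91-fold and 3.42-fold above monocytes and macrophages under the same gate. Gate RNA was not equal, at 691 against 427 CPM in Control and 891 against 670 CPM in DOPAC. With at least 5 gate UMIs per 10000 as well, histone levels were 7562 against 3101 CPM in Control and 3871 against 1475 CPM in DOPAC. Under the gate of 2 UMIs, conventional dendritic cells were close to the macrophages, with 1034 CPM (996 to 1073) in 151 and 962 CPM (852 to 1082) in 36 barcodes. T barcodes outside the CD8, CD4 and regulatory gates had 7024 CPM (6772 to 7284) in 24 Control barcodes and 3116 CPM (2923 to 3319) in 58 DOPAC barcodes. NK cells had 1183 CPM (1044 to 1336) in 27 and 2542 CPM (2382 to 2709) in 50 barcodes. The T markers of the gate summed to 1738 and 2230 CPM in cycling CD8 T barcodes and the monocyte/macrophage markers to 271 and 98.8 CPM there, against 10194 and 6337 CPM in the macrophages, and the part of such mixing in these levels was not tested.

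**Figure D2:**
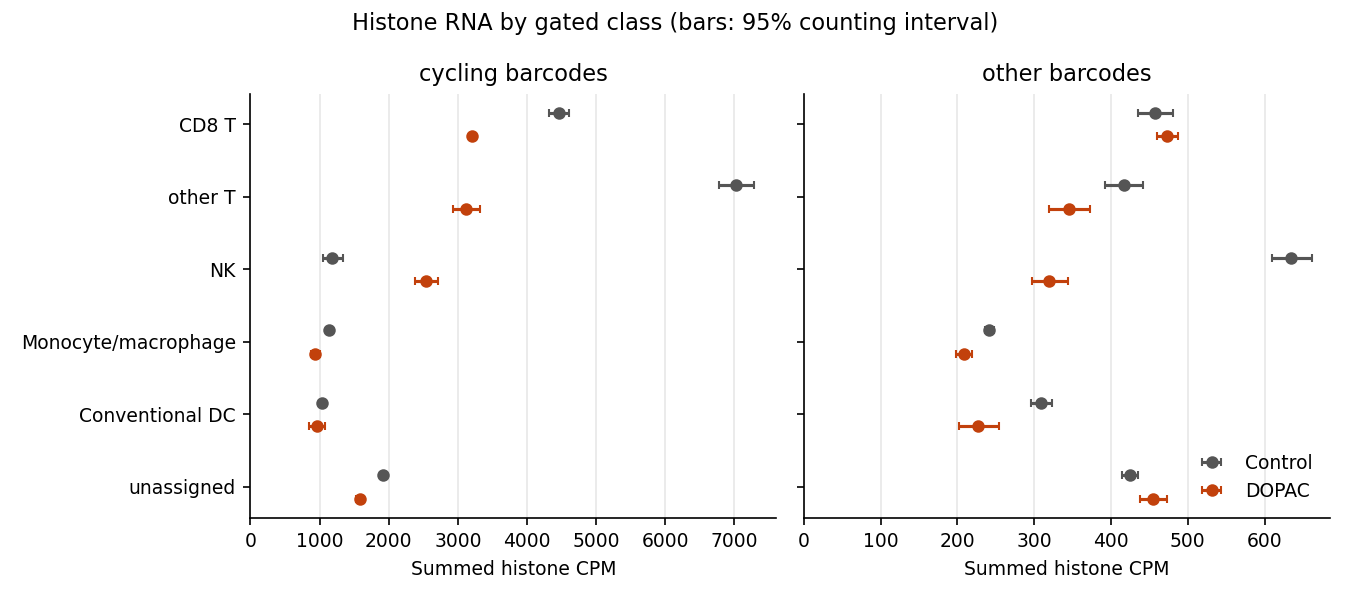
Summed CPM of the 62 histone genes in the 5 gated classes with at least 20 cycling barcodes of each library, and in unassigned barcodes, in cycling barcodes (left) and other barcodes (right), with Control in grey, DOPAC in orange and bars for the 95% counting interval. In cycling barcodes CD8 T and other T lie at or above 3116 CPM in both libraries, and of the classes drawn NK is the one higher in DOPAC.

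The classes differed between the libraries in how many barcodes passed the cycling gate, and so in the makeup of the pooled cycling barcodes. Of CD8 T barcodes 10.2% (7.66 to 13.1) were cycling in Control and 30.3% (28.7 to 32.0) in DOPAC. Of monocytes and macrophages 17.4% (16.0 to 18.8) and 5.02% (4.05 to 6.14) were. Depth differed too, with medians of 11607 and 4006 UMIs in monocytes and macrophages outside the gate. With at least 5 gate UMIs per 10000 as well, 136 of 2896 Control and 49 of 1774 DOPAC monocytes and macrophages were cycling. For CD8 T barcodes it was 19 of 502 and 676 of 3029. The part of depth in these shares was not tested. CD8 T barcodes were 4.87% of the cycling barcodes of Control and 61.5% of those of DOPAC, and monocytes and macrophages 48.1% and 5.96%. Pooled over classes, histone RNA of cycling barcodes was 1.68-fold higher in DOPAC, and 38 of 59 members with at least 20 UMIs were at least 1.5-fold higher and 6 lower, where 21.4% and 32.5% of 13977 genes were. Within classes the direction was the opposite in CD8 T (1.39-fold lower in DOPAC, 1.34 to 1.44), other T (2.25-fold lower, 2.10 to 2.43), monocytes and macrophages (1.21-fold lower, 1.12 to 1.31) and unassigned barcodes (1.21-fold lower, 1.17 to 1.26). In conventional dendritic cells the interval included no difference (0.9504 to 1.22), and in NK cells DOPAC was higher. The CD8 T difference depended on the gate and on depth: its log2 ratio of -0.47 became -0.0047 (-0.053 to 0.045) with a gate of 1 UMI, and -0.045 (-0.32 to 0.28) when every barcode was thinned to 1000 UMIs with that gate.

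The gate of 2 UMIs admitted barcodes with less gate RNA in the deeper Control library: Mki67 and Top2a stood at 469 CPM in its cycling barcodes and at 832 CPM in those of DOPAC. With the further requirement of at least 5 gate UMIs per 10000, added after the data were seen, these levels were 1009 and 1080 CPM over 303 and 1062 barcodes. Pooled histone RNA was then 3784 CPM in Control and 3313 CPM in DOPAC, so that the pooled direction turned. Histone RNA was 7562 CPM in 19 Control and 3871 CPM in 676 DOPAC CD8 T barcodes (1.95-fold lower, 1.88 to 2.03) and 3101 CPM in 136 and 1475 CPM in 49 monocyte/macrophage barcodes (2.10-fold lower, 1.93 to 2.29). In NK cells it was 2508 CPM in 10 and 2603 CPM in 40 barcodes, with an interval that included no difference (0.882 to 1.23). The summed NK difference thus did not remain under this gate. The NK medians per barcode still differed there, at 8.12 histone UMIs per 10000 in Control and 16.6 in DOPAC.

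In cycling CD8 T barcodes, 56 members had at least 20 UMIs, and 21 of them were at least 1.5-fold lower in DOPAC and 7 higher, where 25.5% and 13.0% of all 10453 genes were. The log2 ratio of DOPAC to Control was -0.48 for the median member and -0.14 for the median gene. The counts by type were 4 of 5 H1, 5 of 14 H2A, 3 of 15 H2B, 3 of 10 H3 and 6 of 12 H4 genes lower, and 0, 3, 2, 0 and 2 higher. Hist1h2ab had the lowest ratio, with 280 CPM on 222 UMIs in Control and 82.7 CPM on 677 UMIs in DOPAC (3.38-fold lower, 2.89 to 3.94). Hist1h3f stood at 49.1 and 17.3 CPM (2.83-fold lower, 1.93 to 4.06) and Hist1h1a at 36.5 and 17.2 CPM (2.12-fold lower, 1.37 to 3.18). Hist1h2bl, at 10.1 and 5.25 CPM, rested on 8 Control UMIs and its interval included no difference (0.779 to 4.13). These 4 had the lowest log2 ratios of the 45 members with at least 50 UMIs once 1 count was added to each sum; by CPM alone Hist3h2ba, Hist2h2ac and Hist1h1b were lower than Hist1h2bl. Hist1h1b stood at 436 and 225 CPM (1.94-fold lower, 1.72 to 2.18).

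Hist1h2ap, the most abundant member, stood at 1377 CPM in Control and 1022 CPM in DOPAC CD8 T barcodes (1.35-fold lower, 1.26 to 1.43), and Hist1h2ae at 581 and 440 CPM. At the other end, the 4 highest of these log2 ratios among members with at least 50 UMIs were those of Hist1h2ag at 7.56 and 30.3 CPM, Hist1h2bk at 5.04 and 13.8 CPM, Hist1h2an at 73.0 and 121 CPM (1.66-fold, 1.27 to 2.20) and Hist1h3c at 78.1 and 111 CPM. The first pair rests on 6 and 4 Control UMIs. H2A genes thus stood at both ends of the order within this class.

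In cycling monocytes and macrophages, 46 members were measured, and 15 were at least 1.5-fold higher in DOPAC and 9 lower, where 20.6% and 17.5% of 11327 genes were, with a median member at 0.08 and a median gene at 0.04. Hist1h2ab (52.9 and 17.6 CPM), Hist1h1a (13.2 and 4.06 CPM) and Hist1h1c (85.7 and 20.3 CPM) were lower in DOPAC here as in CD8 T barcodes. Hist1h2an (13.4 and 25.7 CPM) and Hist1h3c (20.2 and 35.2 CPM) were higher in both classes. Hist1h2ae was higher in DOPAC macrophages, 177 against 121 CPM (1.47-fold, 1.22 to 1.76), but lower in DOPAC CD8 T barcodes. The members of this class were spread to both sides of equality.

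**Figure D3:**
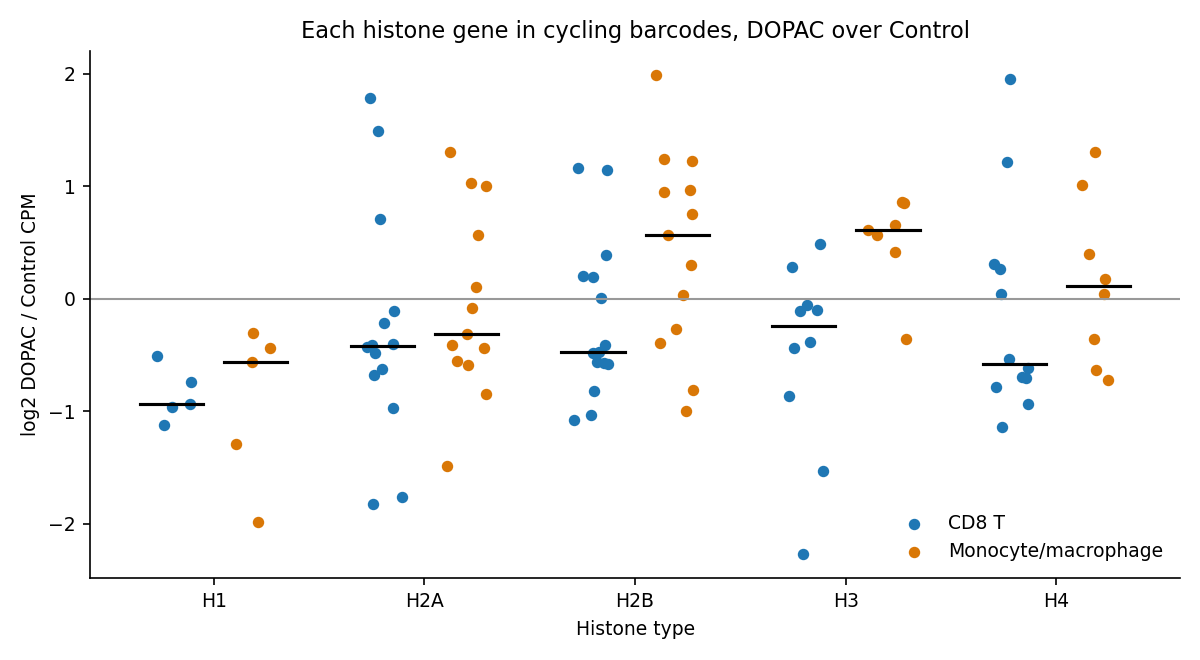
log2 ratio of DOPAC to Control CPM (with 1 count added to each sum) for each histone gene with at least 20 UMIs in cycling CD8 T (blue) or monocyte/macrophage (orange) barcodes, by histone type; black bars are medians. In CD8 T barcodes the medians of all 5 types lie below 0, from -0.94 for H1 to -0.25 for H3, whereas in macrophages H2B, H3 and H4 lie above 0.

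Sums hide how the RNA was spread over barcodes. In cycling CD8 T barcodes the median was 8.01 histone UMIs per 10000 in Control and 24.7 in DOPAC, although the summed level was higher in Control. The upper quartile was 71.3 in Control and 47.2 in DOPAC, and the lower quartile 4.06 and 8.68. This order of the medians depended on the gate: with at least 5 gate UMIs per 10000 the CD8 T medians were 74.7 in Control and 33.1 in DOPAC. The top 10% of barcodes held 44.2% of the histone UMIs in Control and 30.6% in DOPAC. Monocytes and macrophages had low medians in both, 2.69 and 3.25 per 10000, and their top 10% held 63.4% and 50.7%; with the stricter gate these medians were 20.6 and 6.01.

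**Figure D4:**
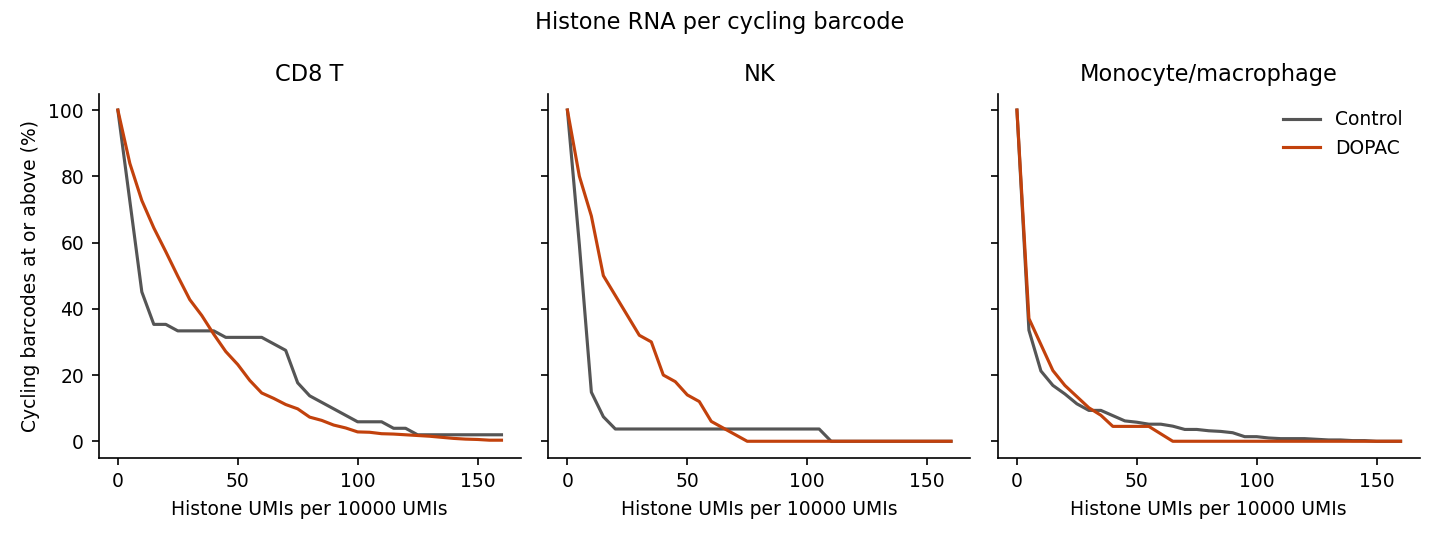
Percent of cycling barcodes (vertical) with at least the given number of histone UMIs per 10000 UMIs (horizontal) in CD8 T, NK and monocyte/macrophage barcodes, Control in grey and DOPAC in orange. The CD8 T curves cross: the DOPAC median is 24.7 and the Control median 8.01, but the Control upper quartile is 71.3; with at least 5 gate UMIs per 10000, not drawn, the medians are 33.1 and 74.7.

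At a fixed depth of 1000 UMIs per barcode, 58.8% of 51 Control and 76.99% of 917 DOPAC cycling CD8 T barcodes had a histone UMI (98.0% and 97.1% without thinning), and 31.4% and 27.6% had 5 or more. Hist1h2ap had a UMI in 39.2% (25.8 to 53.9) and 47.5% (44.3 to 50.8) of them. In thinned CD8 T barcodes outside the cycling gate it was 4.89% (3.09 to 7.31) of 450 and 7.17% (6.10 to 8.36) of 2091. Neutrophils and B cells have few dividing barcodes. Outside the gate, 3.23% (0.670 to 9.14) of 93 Control and 0% (0 to 12.8) of 27 DOPAC neutrophils had it. In B barcodes it was 7.43% (5.28 to 10.1) of 498 and 4.17% (0.105 to 21.1) of 24. Without thinning the Hist1h2ap shares were 68.6% and 81.5% in cycling CD8 T barcodes of Control and DOPAC. Outside the gate they were 24.8% and 22.9% in CD8 T barcodes, 4.04% and 2.94% in neutrophils, and 21.8% and 8.33% in B barcodes. Cycling CD8 T barcodes were above each of these backgrounds in both libraries.

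Cycling barcodes were also divided by whether they held more UMIs of 22 S-phase genes (such as Pcna and Mcm6) or of 18 G2/M genes (such as Ube2c and Birc5), lists of genes expressed around DNA synthesis and in mitosis. Summed histone RNA was higher where G2/M genes led: 2467 against 1206 CPM in Control (2.05-fold, 2.002 to 2.09) and 3211 against 2323 CPM in DOPAC (1.38-fold, 1.35 to 1.41). In monocytes and macrophages it was 1978 against 734 CPM and 1266 against 598 CPM, and in DOPAC CD8 T barcodes 3789 against 2805 CPM. Exceptions, with intervals that included no difference, were other T barcodes of DOPAC at 3037 against 3410 CPM and NK barcodes of Control at 1258 against 1317 CPM. These rest on 18 and 29 other T barcodes and on 3 and 16 NK barcodes. Hist1h2ap followed the sum with 611 against 331 CPM in Control. Barcodes led by G2/M genes also had more UMIs, a median of 24506 against 18490 in Control and 8553 against 8102 in DOPAC. The lists also had unlike baselines. In barcodes outside the cycling gate the S-phase list summed to 267 CPM in Control and 425 CPM in DOPAC, the G2/M list to 48.6 and 129 CPM. Barcodes with little gate RNA could thus fall on the S-phase side. The parts of depth and of these baselines in the split were not tested. Within CD8 T barcodes DOPAC was lower on both sides of the split. It was lower by 1.44-fold (1.38 to 1.51) where S-phase genes led, on 40 Control and 513 DOPAC barcodes. Where G2/M genes led it was 1.64-fold (1.54 to 1.75), on only 9 Control and 348 DOPAC barcodes.

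Hist1h1c, the linker histone that hardly followed the gate in pooled Control barcodes, differed between the libraries outside cycling barcodes. In CD8 T barcodes it stood at 91.9 CPM (82.2 to 102) in Control and 40.3 CPM (36.3 to 44.6) in DOPAC, in NK cells at 163 and 30.2 CPM, and in monocytes and macrophages at 62.7 and 27.2 CPM. In B cells it stood at 212 CPM (194 to 232) in 500 Control barcodes and at 22.6 CPM (0.571 to 126) in 24 DOPAC barcodes, the latter on 1 UMI. In neutrophils it had 59 UMIs in Control and 0 in DOPAC. Counting unassigned barcodes as a class, Hist1h1c was lower in DOPAC in 11 of 11 classes, with every counting interval apart from equality. The difference was 2.28-fold in CD8 T barcodes and 5.39-fold (4.20 to 7.01) in NK cells. Among 1932 genes with at least 20 UMIs in each of these classes, 5 were at least 1.5-fold lower in every class, or 0.259%: Hist1h1c, Junb, Jund, Socs3 and Coro1a, the other 4 named after their values were seen. Junb and Jund encode AP-1 transcription factors, Socs3 an inhibitor of cytokine signalling and Coro1a an actin-binding protein of leukocytes. Hist1h1c was the only histone gene measured in all 11 classes.

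**Figure D5:**
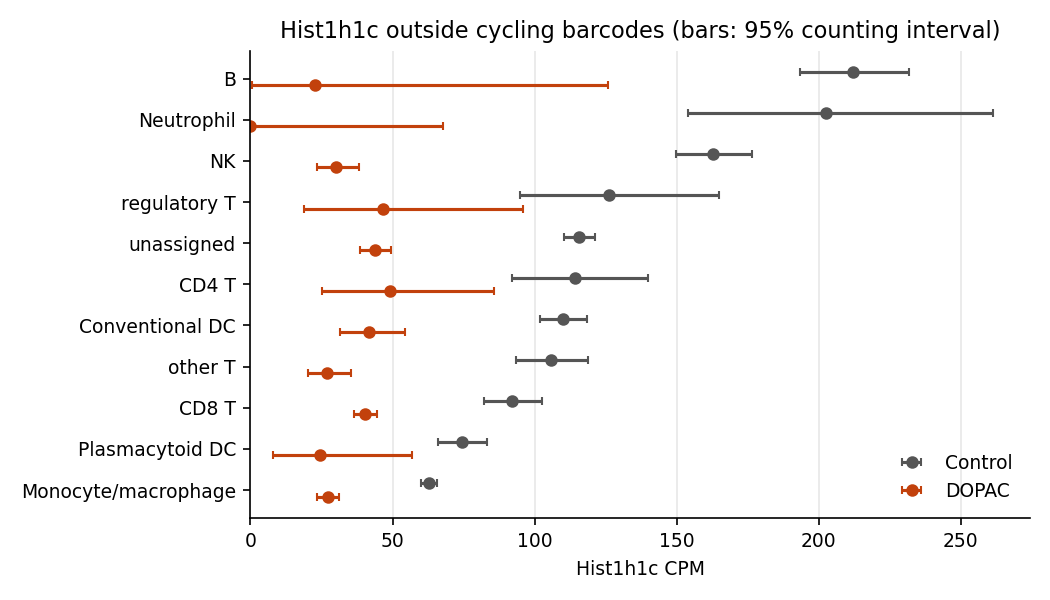
Hist1h1c CPM (horizontal) outside cycling barcodes in 11 classes, with unassigned barcodes counted as a class. Control is in grey and DOPAC in orange, with bars for the 95% counting interval. Control lies above DOPAC in every class, from 62.7 against 27.2 CPM in monocytes and macrophages to 212 against 22.6 CPM in B cells.

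No other member had at least 20 UMIs in each of the 11 classes, so that pattern could not be checked in them by the same rule. Hist1h2bc was lower in DOPAC in 10 of the 11 classes, with the interval apart from equality in 5. Hist1h1e was lower in 7 and apart in 5. Hist1h2ap was lower in 2, with 3 classes apart from equality in the other direction. Summed histone RNA outside cycling barcodes was 353 CPM in Control and 367 CPM in DOPAC when all classes were pooled. Within classes it was lower in DOPAC in 9 of 11, with the interval apart from equality in 7: regulatory T, other T, NK, monocytes and macrophages, both kinds of dendritic cells and neutrophils. In unassigned barcodes, counted among the 11, it was higher in DOPAC (1.07-fold, 1.02 to 1.12). In CD8 T barcodes the interval included no difference (0.978 to 1.10). The NK levels were 635 CPM in Control and 320 CPM in DOPAC, of which Hist1h1c gave 163 and 30.2 CPM.

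Some of the genes that make or handle histone RNA were higher in cycling barcodes. Of 10 matched genes for histone mRNA production and processing, 3 were at least 1.5-fold higher in cycling Control barcodes and 8 in DOPAC, and none lower. Of all genes measured, 17.2% and 13.6% were higher by that rule, and 13.7% and 21.1% lower. Slbp, which binds the stem-loop, stood at 67.7 against 57.4 CPM in Control (1.18-fold) and 163 against 84.0 CPM in DOPAC (1.94-fold). Npat, which activates histone transcription, stood at 21.2 against 16.6 CPM and 71.8 against 40.4 CPM. In CD8 T barcodes none of this list was higher in DOPAC and 3 lower, a share near the 25.5% of all genes that were lower there, and Slbp stood at 159 and 186 CPM.

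The replication-independent variants were mixed, with 5 of 10 higher in cycling barcodes in each library, where 17.2% and 13.6% of all genes were. Their messages are typically, though not always, polyadenylated and made through the cycle. H2afx, the variant phosphorylated at DNA breaks, was 5.31-fold and 5.83-fold higher, and H2afz, placed at promoters, 1.96-fold and 1.80-fold. H3f3b, which encodes H3.3, stood at 2406 against 2914 CPM in Control and 1733 against 1931 CPM in DOPAC. Of 17 chaperone and assembly genes, 8 were higher in cycling than in other barcodes of Control and 12 in those of DOPAC, where 17.2% and 13.6% of all genes were, and 1, Daxx, was lower in cycling barcodes of DOPAC (19.8 against 30.9 CPM). Npm1, Anp32b and Nap1l1 had the most UMIs of this list in cycling barcodes. They were 1.36-fold, 1.99-fold and 1.77-fold higher there in Control, and 1.65-fold, 2.21-fold and 1.88-fold in DOPAC. Asf1b, which carries new H3 and H4, was 10.5-fold and 9.26-fold higher. Chaf1a, a subunit of the assembly factor CAF-1, was 6.50-fold and 5.01-fold higher, and Hira, which places H3.3, 1.06-fold and 1.38-fold. In cycling CD8 T barcodes 2 of 22 S-phase genes were lower in DOPAC and none higher (median -0.32), while 7 of 18 G2/M genes were higher and 3 lower (median 0.31), where 13.0% of all genes were higher and 25.5% lower. Nasp, which stores free histones, stood at 249 and 165 CPM there.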

How the data were processed

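The deposited values are UMI counts per gene and barcode, which per the file headers the authors made with Cell Ranger 7.0.1, against GRCm38 per the submitters' processing notes; other settings are not given in the sources used here. Barcodes with at least 500 UMIs, 200 genes and at most 10% mitochondrial UMIs were kept, leaving 8444 of 9629 Control and 10095 of 10777 DOPAC barcodes (total counts 100938364 and 47769958). Scrublet (scanpy 1.11.5) removed 339 doublets from Control at its automatic threshold. In DOPAC that threshold marked 0, so the 815 highest scores were removed, the expected 0.8% per 1000 barcodes. The libraries shared 32 barcode sequences. The protocol label names colon tissue where other labels name tumor.

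A class needed at least 2 UMIs of its markers and 66.7% of all marker UMIs. Called genes had at least 20 UMIs in both sums together and a 1.5-fold ratio after adding 1 count. Intervals are exact Poisson for levels, Clopper-Pearson for shares and conditional binomial for ratios. The calls were also run on simulated Poisson counts, with changes larger than the calling limit and no spread between barcodes. That run cannot show how often calls are wrong in these data. Symbols of all members matched GENCODE M21 by gene ID.

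The members, gene lists and comparisons were chosen with earlier results of these data known. Genes named are the 3 members of each type with most UMIs in cycling barcodes and members under 2-fold in cycling barcodes of both libraries. Also named are the 4 highest and 4 lowest DOPAC ratios in cycling CD8 T barcodes among members with at least 50 UMIs. Of fixed lists, genes among those with most UMIs are named. Asf1b, Chaf1a, Hira, Npat, H2afx and Nasp were added for their roles, and Daxx because it was lower. Haemoglobin genes, a list for RNA of red cells, summed to 411 CPM in cycling Control macrophages and 1.35 CPM in DOPAC ones.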

Additional observations from a re-analysis of the deposited data

Results flagged for a closer look

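Summed histone RNA in cycling NK barcodes was higher in DOPAC by 1.10 on the log2 scale, from 27 Control and 50 DOPAC barcodes, whereas in cycling CD8 T barcodes the ratio was -0.47. Hist1h2ae was higher by 0.56 in DOPAC cycling monocytes and macrophages and stood at -0.40 in CD8 T barcodes. Each group is 1 library, so neither difference was tested.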

How the results depend on the processing

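No paired analysis was possible because each group has 1 library, and leaving out a replicate was not possible for the same reason. Histone RNA was higher in cycling than in other barcodes in all 11 alternatives. With gates of 1 and 4 UMIs, Rrm2 with Tyms, and Cdk1 with Birc5 and Ube2c, the Control fold was 2.95, 6.57, 6.33 and 7.20. In DOPAC these gates gave 6.09, 7.16, 4.01 and 6.07. With doublets kept it was 4.23 and 6.81, with all deposited barcodes 4.25 and 6.75, thinned to 1000 UMIs 4.69 and 4.72, and with the added gate of 5 UMIs per 10000 9.99 and 6.92. In DOPAC a 5% mitochondrial limit gave 7.81 and CPM without ribosomal and mitochondrial genes 7.54.

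Cycling shares in Control and DOPAC were 26.9% and 28.5% with a gate of 1 UMI, 6.54% and 10.3% with 4, 4.02% and 4.70% with Rrm2 and Tyms, 6.17% and 11.96% with Cdk1, Birc5 and Ube2c, 5.91% and 13.0% thinned, and 3.74% and 11.4% with the added gate.

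The log2 ratio of DOPAC to Control in cycling CD8 T barcodes was below 0 in all 14 alternatives but ranged widely. The 4 gates gave -0.0047, -0.66, -0.79 and -0.78, so with a gate of 1 UMI no difference was left. It was -0.53 with doublets kept and with all barcodes, -0.42 at 5% mitochondrial, -0.045 thinned, -0.34 minus the median gene, -0.25 with a class gate of 3 UMIs and 90%, and -0.97 with the added gate. Members at least 1.5-fold lower were 21 of 56 in the main setting, 8 of 56 with 1 UMI and 32 of 54 with Cdk1, Birc5 and Ube2c. They were 8 of 18 thinned and 36 of 53 with the added gate. The share over all genes was not taken for these alternatives.

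The pooled log2 ratio over all classes was 0.75, and 0.90, 0.47, 0.25 and 0.24 under the 4 gates, 0.83 at 5% mitochondrial, 0.13 thinned, 0.88 without ribosomal and mitochondrial genes, and -0.19 with the added gate, where it reversed; the cause was not tested. The stricter class gate put CD8 T above macrophages by 3.72-fold in Control and 4.55-fold in DOPAC. The cycling Control CD8 T, other T and NK values rest on 51, 24 and 27 barcodes.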
